A study of Caenorhabditis elegans with 24 samples.

Results

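The ceh genes of C. elegans code for proteins with a homeodomain, the DNA-binding fold after which homeobox genes are named. The family examined here holds the protein-coding genes of the deposited tables whose symbol in the Ensembl annotation of WBcel235 is ceh followed by a number, except the Hox gene ceh-13. The gene ceh-44, which that annotation lists under another symbol, is not analysed here. It has 62 members among the 46374 genes of the deposited gene tables. Of these members, 21 lie in the arms of the 5 autosomes, 18 on the X chromosome and 23 in autosome centres, against 9888, 2702 and 7299 of the 19889 protein-coding genes. The rule that chose them used names and biotypes and no measured value.

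Homeodomain proteins are transcription factors that fix the identity of neurons, epidermal cells, muscle and other tissues, and most are transcribed in few cells at few stages. Their genes are therefore silent in most cells of a larva. BAF-1, the barrier-to-autointegration factor, is a small chromatin protein that binds DNA and proteins of the nuclear envelope, and in C. elegans the arms of the autosomes are the regions known to lie close to that envelope.

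Binding was measured by DamID, which joins the protein under study to Dam, a methyltransferase of bacteria that marks the adenine of GATC sites lying near it. The fusions were Dam::BAF-1(G12T), carried by baf-1(G12T) mutant animals, and Dam::BAF-1, carried by wild-type animals. Each was expressed in hypodermis and in intestine and was set against its own GFP::Dam, expressed in animals of the same genotype and tissue. With 3 libraries of each of these 8 groups there were 24 libraries, and 3 ratios of fusion over GFP::Dam for each of the 4 fusion groups.

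A difference between the proteins is thus also a difference between genotypes. All transgenes were single copies inserted on chromosome II behind the hsp16.41 heat-shock promoter and a histone cassette flanked by FRT sites. The cassette was removed by FLP recombinase under the dpy-7 promoter for hypodermis, or under the nhx-2 promoter for intestine, so that the tissue is the one in which the promoter was active. Each library came from a pool of 4000 L4 larvae after 48 h at 20 °C, with 400 ng of DNA and 22 PCR cycles. The ratios hold no expression values, so the tissue could not be checked against marker genes, and fewer methylated cells cannot be told apart from less methylation per cell in such pools. The tables of ratios hold no read counts, and the reads per library that the study lists, which are uneven between libraries, were not used here. The study describes its DamID libraries as biological replicates, while the labels do not say whether the pools came from separate cultures, and the p-values measure the spread between these libraries.

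The value of a gene is the log2 ratio of fusion over GFP::Dam, counted over the gene and 500 bp on each side and centred on the median of the tested genes of its column. A value above 0 therefore means a higher ratio of fusion over GFP::Dam than at the middle gene. A gene is called bound where limma put its mean of 3 replicates above 0 at a Benjamini-Hochberg adjusted p under 0.05. Of the 62 members, 60 were tested in hypodermis for BAF-1(G12T), 58 in hypodermis for BAF-1, 59 in intestine for BAF-1(G12T) and 60 in intestine for BAF-1. The sine oculis class gene ceh-33 and the paired-like gene ceh-8 were tested in no group, ceh-53 was missing in 1 group and ceh-76 in 2. Over the members, the correlation between replicates ranged between 0.472 and 0.823.

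Dam can mark a gene only where GATC occurs. The counted windows of the members held 2 to 39 GATC sites, with a median of 9.5 against 9 for protein-coding genes, or 2.60 per kb against 2.80. Of the 693 sites in member windows, 337 (48.6%) lay in exons, 219 (31.6%) in introns and 137 (19.8%) in the 500 bp flanks. Some windows overlap one another, namely those of ceh-81, ceh-82 and ceh-83, of ceh-41 and ceh-21, and of ceh-57 and ceh-58, so these genes share reads.

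The stretches of 200 bases shown here are the ones with most GATC sites, outside annotated untranslated regions, in the windows of 6 members on which the results turn. They are WBcel235 sequence from RefSeq, written 5′ to 3′ on the strand of the gene, with each GATC in capitals. The first pair belongs to genes bound in all 4 groups, the second pair to genes below 0 in all 4 groups, and the third pair to genes that differed between the tissues for BAF-1(G12T). Cut into tiles of 200 bases, the genome had at least 1 GATC in 38% of 501361 tiles, at least 2 in 11%, at least 3 in 2.77% and at least 4 in 0.689%.
ceh-40: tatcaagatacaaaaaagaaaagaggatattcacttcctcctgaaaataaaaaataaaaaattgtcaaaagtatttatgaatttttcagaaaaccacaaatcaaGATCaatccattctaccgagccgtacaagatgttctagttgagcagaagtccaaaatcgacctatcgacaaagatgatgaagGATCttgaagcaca
ceh-92: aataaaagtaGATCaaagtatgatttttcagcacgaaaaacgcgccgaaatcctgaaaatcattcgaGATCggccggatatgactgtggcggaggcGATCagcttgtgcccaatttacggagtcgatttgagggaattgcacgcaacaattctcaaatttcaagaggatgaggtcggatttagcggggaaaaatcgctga
ceh-7: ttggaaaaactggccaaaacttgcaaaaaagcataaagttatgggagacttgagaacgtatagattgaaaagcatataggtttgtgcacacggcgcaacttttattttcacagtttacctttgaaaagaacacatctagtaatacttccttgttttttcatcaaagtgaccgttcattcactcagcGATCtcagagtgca
ceh-38: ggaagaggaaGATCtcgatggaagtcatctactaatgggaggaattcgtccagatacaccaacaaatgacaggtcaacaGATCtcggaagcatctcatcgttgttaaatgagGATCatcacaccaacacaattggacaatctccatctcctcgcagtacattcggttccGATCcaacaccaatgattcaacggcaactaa
ceh-14: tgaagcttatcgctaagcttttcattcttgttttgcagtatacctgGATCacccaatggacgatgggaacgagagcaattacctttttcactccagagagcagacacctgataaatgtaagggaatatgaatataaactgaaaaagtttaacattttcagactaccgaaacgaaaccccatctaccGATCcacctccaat
ceh-60: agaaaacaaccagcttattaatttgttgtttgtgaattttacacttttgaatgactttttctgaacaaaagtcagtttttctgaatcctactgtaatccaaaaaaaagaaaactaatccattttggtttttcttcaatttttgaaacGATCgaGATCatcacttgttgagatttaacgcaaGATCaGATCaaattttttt

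The ceh-40 stretch lies at chrX:12319829-12320028 with both GATC sites in exons, of 8 sites in its window. The ceh-92 stretch, at chrIII:11583016-11583215, holds 3 sites, 2 in an exon and 1 in an intron, of 23 in the window. The single site shown for ceh-7, at chrII:8702817-8703016, is in the flank, and only 4 sites make up the whole window of this short gene. The coding exon of ceh-38 at chrII:6952743-6952942 has 4 of the 16 sites of its window. Both sites of ceh-14, at chrX:7528743-7528942, are in exons, of 12 in all, and the 4 sites of ceh-60, at chrX:6527875-6528074, are in introns, of 22 in all. Genes with many and with few sites were thus found among the bound members as well as among those below 0.

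Arm members were bound more often than members on X and in centres in all 4 groups. In hypodermis with BAF-1(G12T), 21 of 60 members (35%) were bound, against 24.6% of all genes and 24.3% of protein-coding genes. With BAF-1 in hypodermis these were 15 of 58 (25.9%), against 20.5% and 21.9%. In intestine with BAF-1(G12T), 10 of 59 members (16.9%) were bound, against 21.9% of all genes and 19.7% of protein-coding genes, and with BAF-1 7 of 60 (11.7%), against 25.9% and 18.6%. The side of the background depended on the processing in intestine with BAF-1(G12T). There the share of bound members was above that of protein-coding genes with the deposited centring (22.0% against 20.5%), in a fit of protein-coding genes alone (28.8% against 25.8%) and without the filter (17.7% against 16.9%). It was 20.7% against 22.9% in hypodermis with BAF-1 without replicate 1, and 23.3% against 23.2% in hypodermis with BAF-1(G12T) without replicate 1. The count of bound members was 12 without replicate 2 of hypodermis BAF-1(G12T) (20.0%, against 16.1% of protein-coding genes). For hypodermis BAF-1 it was 8 without replicate 2 (13.8% against 13.5%) and 9 without replicate 3 (15.5% against 14.3%). Without any 1 replicate of intestine BAF-1(G12T) it was 4 to 6 (6.78% to 10.2%, against 11.4% to 19.4%). For intestine BAF-1 it was 0 without replicate 2, when 6 members had an unadjusted p under 0.05, and 2 without replicate 3. When genes without an adjusted p of the authors also entered the fit, it was 0 of 62 for hypodermis BAF-1(G12T). There 0.912% of all genes and 1.05% of protein-coding genes were bound, and 10 members had an unadjusted p under 0.05. For intestine BAF-1 the count was then 4 (6.45%), against 13.4% and 11.1%.

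By position, in hypodermis with BAF-1(G12T), 15 of 20 tested arm members (75%), 4 of 18 X members (22.2%) and 2 of 22 centre members (9.09%) were bound, where the protein-coding genes of the same compartments gave 44.7%, 7.71% and 3.47%. With BAF-1 in hypodermis the counts were 11 of 18 arm members (61.1%), 4 of 18 on X (22.2%) and 0 of 22 in centres, beside 40.6%, 6.93% and 2.56% of protein-coding genes. In intestine with BAF-1(G12T), 6 of 19 arm members (31.6%), 3 of 18 X members (16.7%) and 1 of 22 centre members (4.55%) were bound, near the background of 33.8%, 13.6% and 3.45%. With BAF-1 in intestine, 5 of 20 arm members (25%), 2 of 18 X members (11.1%) and 0 of 22 centre members were bound, beside 32.3%, 10.8% and 3.23%.

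**Figure D1:**
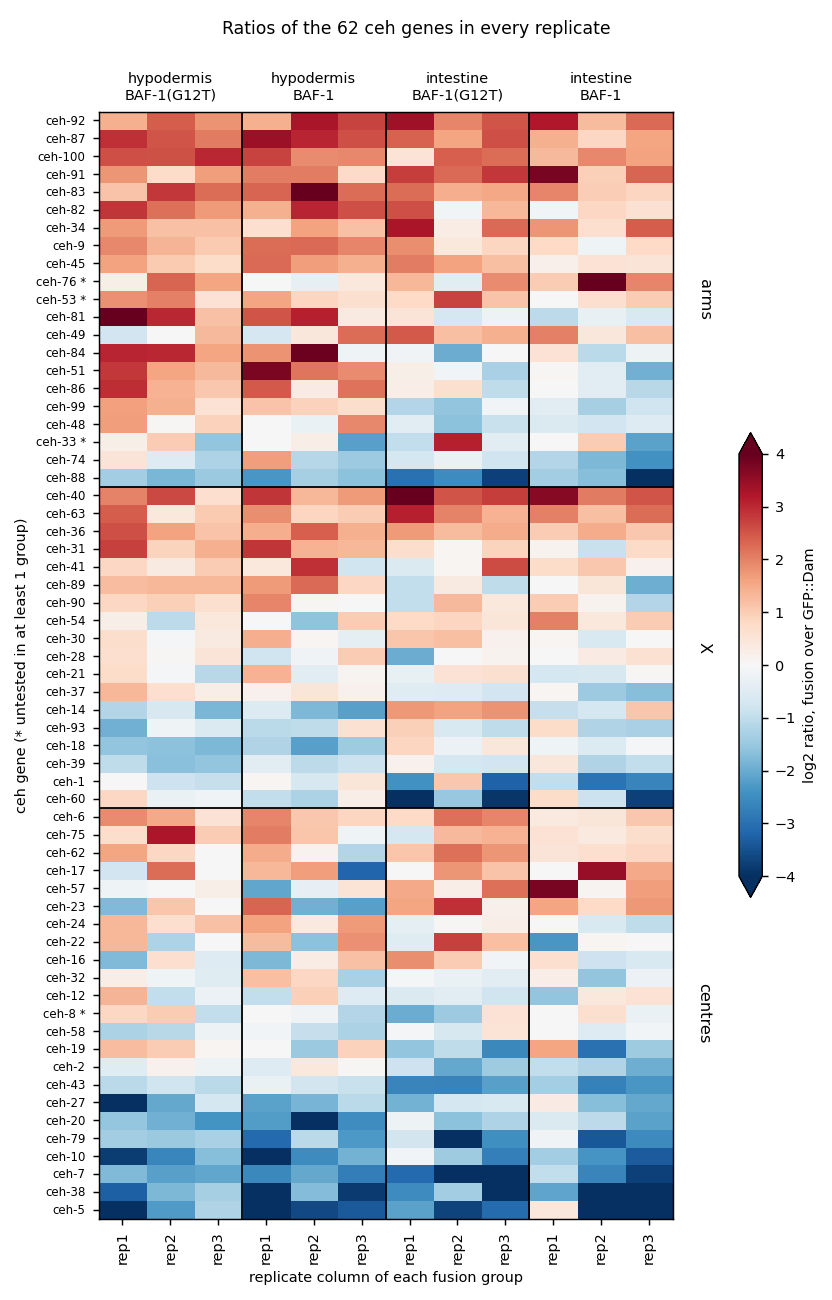
Centred log2 ratio of fusion over GFP::Dam (color) of each member (one line per gene) in the 12 replicate columns, with members ordered by arms, X and centres and a star on those untested in at least 1 group. Arm members are mostly above 0 in the 6 hypodermis columns, and in each hypodermis group 9 of the 22 tested centre members are below 0 in all 3 replicates.

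Members called below 0 were mostly centre genes. There were 11 of 60 (18.3%, against 26.3% of all genes and 26.2% of protein-coding genes) in hypodermis with BAF-1(G12T), 10 of 58 (17.2%, against 24% and 22.5%) in hypodermis with BAF-1, 8 of 59 (13.6%, against 19.2% and 22.2%) in intestine with BAF-1(G12T) and 9 of 60 (15.0%, against 22.4% and 29.7%) in intestine with BAF-1. Centres held 7, 7, 6 and 6 of them in that order of groups, out of 22 tested. These are 31.8%, 31.8%, 27.3% and 27.3% of the centre members, where 45.4%, 41.1%, 37.1% and 48.0% of protein-coding centre genes were called below 0. On X, 3, 2, 1 and 1 of 18 members were below 0, when 34.8%, 31.3%, 20.3% and 29.9% of protein-coding X genes were. In arms there were 1, 1, 1 and 2, when 9.41%, 6.12%, 11.4% and 15.9% of protein-coding arm genes were below 0.

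The mean ratio over members followed the same order of compartments. In hypodermis with BAF-1(G12T), the 20 arm members averaged 1.75, 1.46 and 1.14 in replicates 1, 2 and 3, the 18 X members 0.64, 0.14 and 0.05, and the 22 centre members -0.86, -0.33 and -0.47. With BAF-1 in hypodermis the arm means were 1.60, 1.73 and 1.30, the X means 0.62, 0.09 and 0.24, and the centre means -0.74, -0.79 and -0.97. In both hypodermis groups no replicate of one compartment overlapped another. In intestine with BAF-1(G12T) the arm means were 1.05, 0.40 and 0.62, the X means 0.24, 0.52 and 0.14, and the centre means -0.50, -0.46 and -0.71. With BAF-1 in intestine they were 0.67, 0.29 and 0.24 in arms, 0.54, -0.21 and -0.22 on X, and -0.06, -1.17 and -0.98 in centres. In intestine the arm and X means of different replicates overlapped for both proteins, and for BAF-1 so did the X and centre means.

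Within a column, arm members were above centre members in 12 of 12 columns and X members above centre members in 12 of 12. Arm members were above X members in 11 of 12, the exception being replicate 2 of intestine BAF-1(G12T), with a difference of -0.12. The arm minus centre difference over members was 2.0 ± 0.53 in hypodermis with BAF-1(G12T), 2.37 ± 0.13 in hypodermis with BAF-1, 1.25 ± 0.35 in intestine with BAF-1(G12T) and 1.14 ± 0.37 in intestine with BAF-1 (SD, n = 3 each). Over protein-coding genes the same differences were 1.97 ± 0.23, 2.22 ± 0.17, 1.94 ± 0.32 and 1.89 ± 0.67. The difference of the members was close to that of protein-coding genes in hypodermis and smaller in intestine.

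On X the members stood above other protein-coding genes. The arm minus X difference over members was 1.18 ± 0.13, 1.23 ± 0.36, 0.39 ± 0.47 and 0.36 ± 0.21 in the same order of groups, against 1.60, 1.79, 0.98 and 1.07 over protein-coding genes. The mean of X members exceeded that of protein-coding X genes in 12 of 12 columns, by 0.22 to 1.38 with a mean of 0.82. Centre members also exceeded protein-coding centre genes in 12 of 12 columns, by 0.13 to 1.22 with a mean of 0.56. Arm members did so in 9 of 12 columns, with a mean of 0.25 and a range of -0.13 to 0.85. No p is given for these means, since the members are single genes of 1 family and not replicates.

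**Figure D2:**
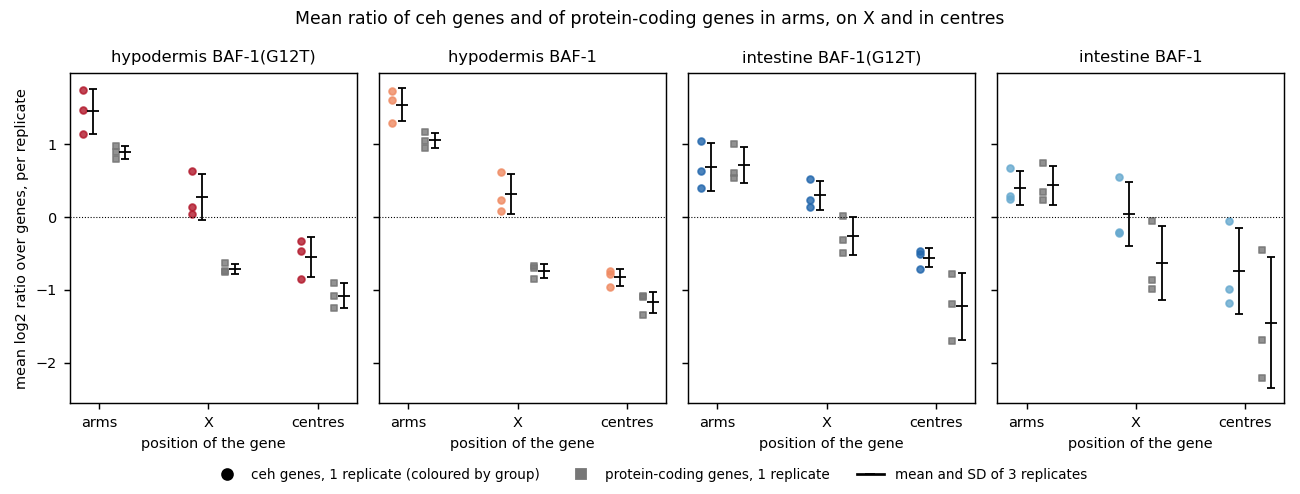
Mean centred log2 ratio of the members in arms, on X and in centres in each replicate (points), with the mean and SD of the 3 replicates, and the same for protein-coding genes of each compartment. X and centre members lie above the protein-coding genes of their compartment in all 12 columns.

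The medians over genes gave the same picture. The median arm member was at 1.46, 1.83, 1.28 and 0.46 in the 4 groups, in the order used so far, against 1.08, 1.21, 0.76 and 0.53 for protein-coding arm genes. On X the medians were 0.37, 0.31, 0.33 and -0.17 for members, against -0.67, -0.74, -0.35 and -0.78. In centres they were -0.20, -0.39, -0.44 and -0.65 for members, against -1.07, -1.17, -1.43 and -1.69. In each compartment the members spread widely, and for example the arm members of hypodermis BAF-1(G12T) ranged between -1.57 for ceh-88 and 2.84 for ceh-81.

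**Figure D3:**
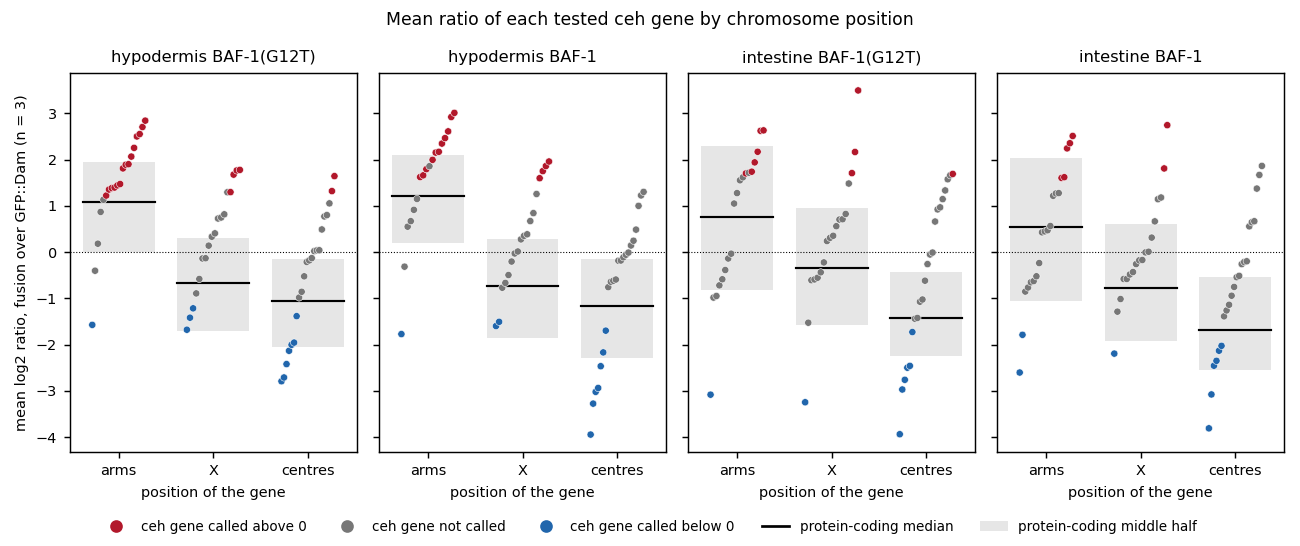
Mean centred log2 ratio of 3 replicates (y axis) in arms, on X and in centres for the 4 fusion groups, 1 point per tested member, colored by its call, over the median (line) and interquartile range (box) of protein-coding genes. The protein-coding medians on X are between -0.78 and -0.35, and most members on X lie above them.

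The ratio of a gene depends on the region around it, so each member was also set against its surroundings. For this, the mean of the 2 kb bins that overlap the gene and its flanks was taken minus the mean of the bins 10 to 50 kb away on both sides. This measure was chosen after the ratios had been seen. The median centre member was above its surroundings by 0.68 in hypodermis with BAF-1(G12T), 0.71 in hypodermis with BAF-1, 0.49 in intestine with BAF-1(G12T) and 0.29 in intestine with BAF-1, against 0.07, 0.05, -0.17 and -0.18 for protein-coding centre genes. In the same order of groups, 19, 16, 15 and 16 of the 23 centre members (82.6%, 69.6%, 65.2% and 69.6%) were above their surroundings, where 52.6%, 51.7%, 43.6% and 43.4% of protein-coding centre genes were.

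X members had median local differences of 0.47, 0.60, 0.23 and 0.69 against 0.16, 0.17, -0.02 and -0.02 for protein-coding X genes. Arm members had 0.25, 0.16, -0.19 and -0.41 against 0.15, 0.12, 0.01 and 0.07. Of the 18 X members, 13, 13, 11 and 12 (72.2%, 72.2%, 61.1% and 66.7%) were above their surroundings. Of protein-coding X genes, 55.7%, 54.9%, 49.5% and 49.4% were. The replicate medians of X members in intestine with BAF-1(G12T) were -0.21, 1.10 and 0.25, so that 1 of them was below 0. In arms the medians in intestine were below 0. Over all compartments, 45, 42, 33 and 36 of the 62 members (72.6%, 67.7%, 53.2% and 58.1%) were above their surroundings, beside 54.2%, 53.4%, 47.8% and 48.3% of protein-coding genes.

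A local excess in all 12 columns was found for 9 members. The Bar-class genes ceh-31 and ceh-30, neighbors on X of which ceh-30 promotes the survival of male sensory neurons, had local differences of 2.58 and 1.71 in hypodermis with BAF-1(G12T), 2.91 and 2.03 in hypodermis with BAF-1, 1.84 and 2.0 in intestine with BAF-1(G12T), and 1.75 and 1.52 in intestine with BAF-1. The Otx-class gene ceh-36, which specifies chemosensory neurons, had 1.48, 1.70, 2.45 and 2.5. The others were ceh-9, ceh-12 (motor neuron identity), ceh-14, ceh-16, ceh-32 and ceh-76. In contrast, 5 members, ceh-21, ceh-33, ceh-39, ceh-88 and ceh-99, lay below their surroundings in all 12 columns. Of these, ceh-33 was tested in no group by its gene ratio. The share of protein-coding genes above or below in all 12 columns was not taken, so both counts have no background beside them.

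**Figure D4:**
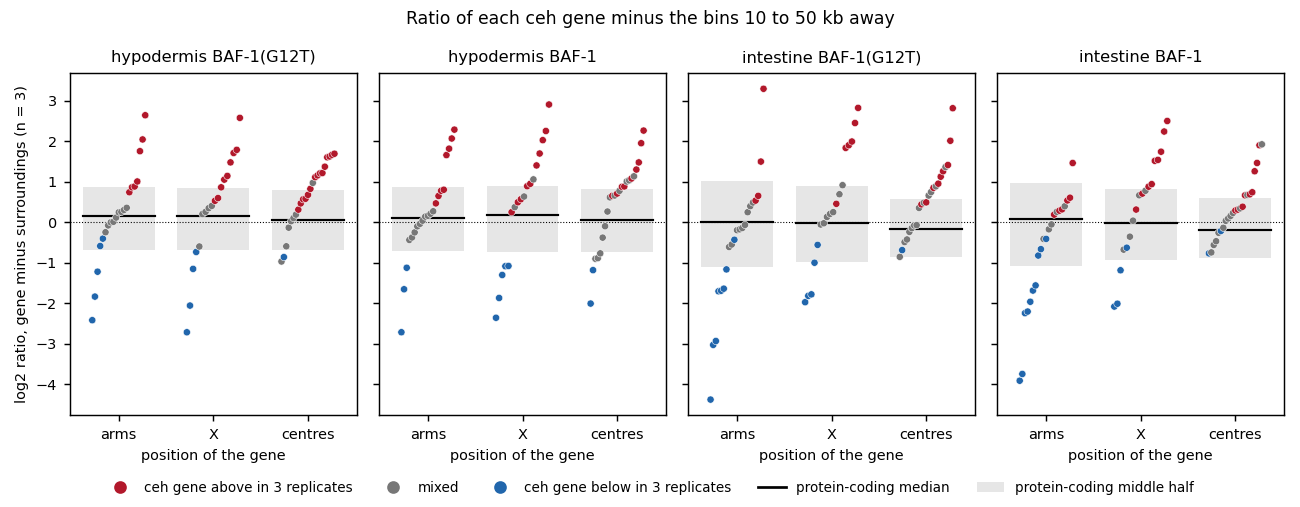
Local difference of each member (mean ratio of the gene's 2 kb bins minus that of bins 10 to 50 kb away, log2 scale) in arms, on X and in centres for the 4 fusion groups, 1 point per member, colored by whether it was above or below its surroundings in all 3 replicates. The line and box give the median and interquartile range of protein-coding genes, and in centres 15, 9, 9 and 9 of 23 members are above in all 3 replicates (65.2%, 39.1%, 39.1% and 39.1%, against 33.9%, 28.8%, 21% and 24.8% of protein-coding genes).

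Turning to single members, 3 were bound in all 4 groups, ceh-40, ceh-92 and ceh-91, and 5 were below 0 in all 4, ceh-88, ceh-5, ceh-38, ceh-7 and ceh-79. In at least 1 group 26 members were bound, 17 in arms, 6 on X and 3 in centres, and 16 were below 0, 2 in arms, 5 on X and 9 in centres. Only ceh-14 was in both sets. The shares of all genes were not taken for counts over several groups, so these counts have no background beside them. In the same order of groups, 9 of 21, 5 of 15, 3 of 10 and 0 of 7 bound members kept the call without any 1 replicate, and 6 of 11, 5 of 10, 5 of 8 and 0 of 9 members below 0 did. Those that kept it were ceh-36, ceh-51 and 7 arm members of chromosome II in hypodermis with BAF-1(G12T), ceh-9, ceh-51, ceh-83, ceh-87 and ceh-100 in hypodermis with BAF-1, and ceh-40, ceh-91 and ceh-92 in intestine with BAF-1(G12T). Below 0 they were ceh-5, ceh-7, ceh-10, ceh-20 and ceh-38 in both hypodermis groups, with ceh-18 for BAF-1(G12T), and ceh-5, ceh-7, ceh-43, ceh-60 and ceh-88 in intestine with BAF-1(G12T). No call of intestine BAF-1 held in this way, since without replicate 2 no gene passed (0 of 36850 in either direction). Keeping a call was thus not possible for any gene of that group.

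Of the 3 PBC-class members, whose proteins are the partners with which Hox proteins bind DNA, ceh-40 was the highest. Its ratios were 1.98, 2.64 and 0.67 in hypodermis with BAF-1(G12T), 2.87, 1.31 and 1.69 in hypodermis with BAF-1, 5.21, 2.51 and 2.76 in intestine with BAF-1(G12T), and 3.64, 2.06 and 2.53 in intestine with BAF-1. Every one of the 12 values was above 0, although the gene lies on X (chrX:12318126-12320777), and the values of the groups overlapped. The means were 1.77 ± 0.50 (limma, SE, adjusted p = 0.0148), 1.96 ± 0.57 (0.0155), 3.50 ± 0.70 (0.0062) and 2.74 ± 0.62 (0.0076). The adjusted p was 0.1298 without replicate 2 of hypodermis BAF-1(G12T), 0.0585 without replicate 3 of hypodermis BAF-1 and 0.0887 without replicate 2 of intestine BAF-1. By contrast ceh-20, the closest partner of the Hox proteins in the mesoderm, had -1.56, -1.91 and -2.39 in hypodermis with BAF-1(G12T) and -2.25, -4.32 and -2.49 in hypodermis with BAF-1. Both hypodermis means, -1.96 (adjusted p = 0.0052) and -3.02 (0.0024), were below 0. In intestine ceh-20 did not pass, with means of -1.02 for BAF-1(G12T) and -1.26 for BAF-1, although the BAF-1 mean passed without replicate 1 (-1.60, 0.018). The third PBC gene, ceh-60, which takes part in yolk protein expression in the intestine, is described with the tissues.

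The neighbors ceh-92 (chrIII:11581600-11589133) and ceh-91 (chrIII:11616746-11623994) are the 2 tested arm members of chromosome III. ceh-92 had 1.43, 2.44 and 1.80 in hypodermis with BAF-1(G12T), 1.42, 3.28 and 2.70 in hypodermis with BAF-1, 3.40, 1.96 and 2.53 in intestine with BAF-1(G12T), and 3.20, 1.26 and 2.27 in intestine with BAF-1. ceh-91 had 1.76, 0.75 and 1.68, then 2.04, 2.05 and 0.77, then 2.77, 2.26 and 2.84, and 3.81, 0.94 and 2.31 in the same groups. All 24 values were above 0, and the groups overlapped for both genes. The means of ceh-92 were 1.89, 2.46, 2.63 and 2.24 (limma, adjusted p = 0.0065, 0.0055, 0.0099 and 0.0156), and those of ceh-91 were 1.40, 1.62, 2.62 and 2.35 (0.0269, 0.0342, 0.0088 and 0.0178). The calls in intestine with BAF-1(G12T) held under every alternative, and those in the other 3 groups did not. For ceh-92 the adjusted p was 0.0604 without replicate 2 of hypodermis BAF-1(G12T), 0.0509 without replicate 2 of hypodermis BAF-1, and 0.0968 and 0.0695 without replicates 2 and 3 of intestine BAF-1. For ceh-91 it reached 0.1336 without replicate 3 of hypodermis BAF-1(G12T), 0.1953 without replicate 2 of hypodermis BAF-1 and 0.0889 without replicate 2 of intestine BAF-1.

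The arms of chromosome II held 8 members, more than any other chromosome, and this set was singled out after its values were seen. All 8 were bound in hypodermis with BAF-1(G12T) and 6 in hypodermis with BAF-1, against 52.4% and 49.7% of protein-coding genes in arms of chromosome II. In intestine 2 were bound with BAF-1(G12T) and 1 with BAF-1, against 42% and 38%. The highest mean of all members in each hypodermis group was found here. For BAF-1(G12T) it belonged to ceh-81 and for BAF-1 to ceh-87. ceh-81 had 4.36, 3.0 and 1.16 with BAF-1(G12T) and 2.52, 3.12 and 0.35 with BAF-1 in hypodermis, with means of 2.84 (adjusted p = 0.0035) and 1.99 (0.0233). ceh-100 had 2.57, 2.54 and 3.0 and a mean of 2.70 (0.0012) with BAF-1(G12T) in hypodermis, and 2.71, 1.88 and 1.92 with BAF-1. ceh-87 had 2.94, 2.5 and 2.06 with BAF-1(G12T) and 3.42, 3.05 and 2.56 with BAF-1 in hypodermis. Its means of 2.5 (0.0018) and 3.01 (0.0017) were joined by 2.17 (0.0188) in intestine with BAF-1(G12T), and in intestine with BAF-1 it did not pass, at 1.28. ceh-83 had 2.32, 4.22 and 2.22 with BAF-1 in hypodermis, a mean of 2.92 (0.0028). The BAF-1 call of ceh-81 in hypodermis was lost without replicate 2 (0.1899), and the intestine call of ceh-87 without replicate 1 (0.0528) or replicate 3 (0.1189). The genes ceh-81, ceh-82 and ceh-83 stand side by side in overlapping windows, so that their values are not separate measurements.

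**Figure D5:**
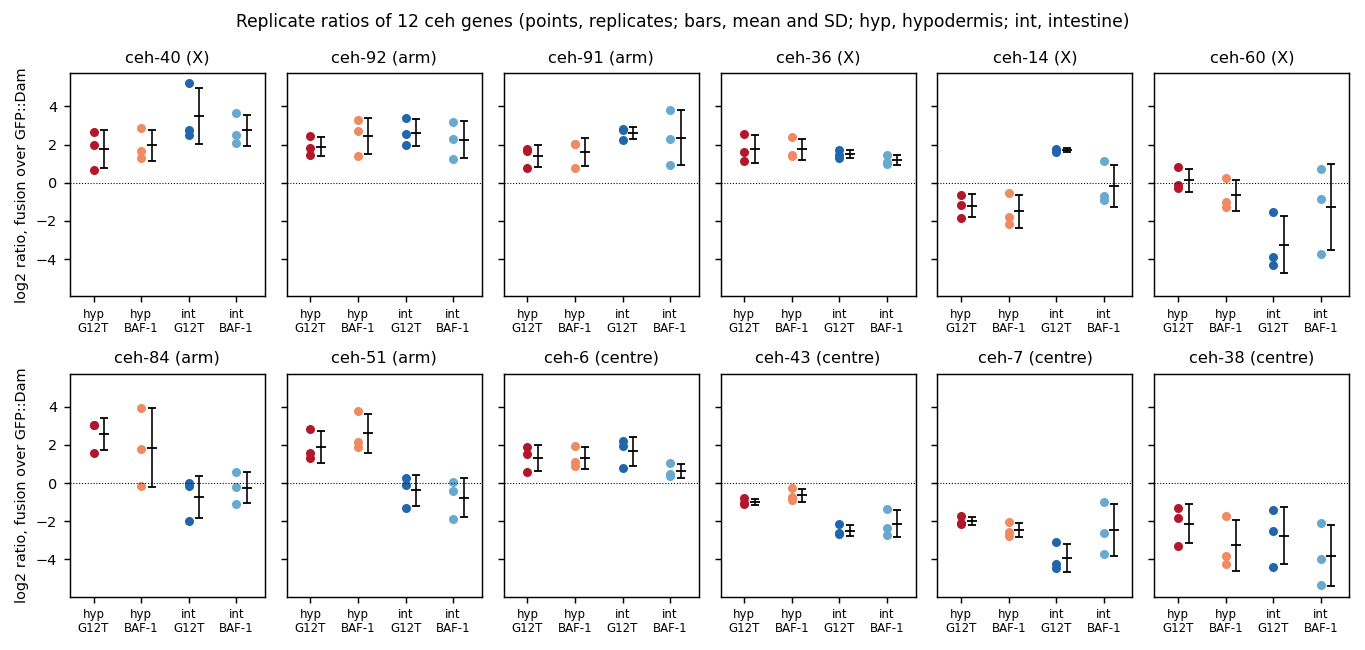
Centred log2 ratio of 12 members in the 3 replicates of each fusion group (points), with bars for the mean and SD (hyp, hypodermis, int, intestine). The 12 points of ceh-40, ceh-91 and ceh-92 are all above 0, and those of ceh-7, ceh-38 and ceh-43 are all below 0.

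On X the bound members of hypodermis were the same 4 for both proteins, ceh-31, ceh-36, ceh-40 and ceh-89. ceh-36 had 2.57, 1.61 and 1.15 with BAF-1(G12T) and 1.46, 2.38 and 1.42 with BAF-1 in hypodermis. In intestine its values were 1.70, 1.28 and 1.47 with BAF-1(G12T) and 1.0, 1.47 and 1.07 with BAF-1, so that all 12 were above 0, but the gene was not called there. ceh-63 was bound in intestine alone, with 3.12, 2.0 and 1.38 for BAF-1(G12T) and 2.0, 1.2 and 2.23 for BAF-1. Its hypodermis values of 2.42, 0.43 and 1.03 for BAF-1(G12T) and 1.87, 0.87 and 1.03 for BAF-1 were also above 0, with adjusted p of 0.0532 and 0.0819 by limma. The intestine calls of ceh-63 were lost without replicate 1 (0.0927) for BAF-1(G12T) and without replicate 2 (0.1473) or replicate 3 (0.1789) for BAF-1. The hypodermis call of ceh-36 for BAF-1 was lost without replicate 2 (0.1845) or replicate 3 (0.0705).

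Bound centre members were few. ceh-6, a POU gene of the excretory cell and of neurons, had 1.88, 1.51 and 0.56 in hypodermis with BAF-1(G12T), where it was called (mean 1.32, limma, adjusted p = 0.0369). It had 1.94, 1.09 and 0.87 in hypodermis with BAF-1, 0.81, 2.21 and 1.96 in intestine with BAF-1(G12T) and 0.38, 0.49 and 1.07 in intestine with BAF-1, without a call. All 12 values were above 0, where the median protein-coding centre gene was between -1.69 and -1.07. The call was lost without replicate 1 (adjusted p = 0.1015) or replicate 2 (0.1655). The other bound centre members were ceh-75, with 0.71, 3.22 and 1.0 in hypodermis with BAF-1(G12T), and ceh-62, with 1.12, 2.19 and 1.76 in intestine with BAF-1(G12T). By limma, the adjusted p of ceh-75 was 0.3491 without replicate 2, and that of ceh-62 lay between 0.0578 and 0.1916 when each replicate was left out in turn.

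The lowest member of each group was a centre gene of the ANTP or ONECUT class. Next lowest in hypodermis with BAF-1(G12T) was the paired-like centre gene ceh-10, at a mean of -2.71. In intestine with BAF-1(G12T) the X gene ceh-60 came next, at -3.25. ceh-5, an ANTP-class gene, had -4.92, -2.26 and -1.19 in hypodermis with BAF-1(G12T), -4.86, -3.61 and -3.36 in hypodermis with BAF-1, -2.14, -3.69 and -3.08 in intestine with BAF-1(G12T), and 0.42, -5.41 and -4.24 in intestine with BAF-1. Its means were -2.79, -3.94, -2.97 and -3.08 (limma, adjusted p = 0.0058, 0.0013, 0.007 and 0.0224), and the one value above 0 was replicate 1 of intestine BAF-1. Without replicate 2 that last mean was -1.91 (adjusted p = 0.2484), and without replicate 3 the adjusted p was 0.0593. ceh-38, an ONECUT gene (chrII:6951526-6955409), had -3.28, -1.81 and -1.31, then -4.25, -1.74 and -3.84, then -2.5, -1.39 and -4.38, and -2.12, -5.32 and -3.99 in the same groups. All 12 values were below 0, with means of -2.13 (0.0062), -3.27 (0.002), -2.76 (0.0134) and -3.81 (0.0063). Without replicate 2 of intestine BAF-1 the last adjusted p was 0.0897. ceh-7 (chrII:8703315-8703829), also of the ANTP class, had -1.75, -2.17 and -2.09 in hypodermis with BAF-1(G12T), -2.58, -2.06 and -2.75 in hypodermis with BAF-1, -3.12, -4.45 and -4.24 in intestine with BAF-1(G12T), and -1.0, -2.64 and -3.72 in intestine with BAF-1. In intestine with BAF-1(G12T) its mean of -3.94 (0.0046) was the lowest of all members, and its call in intestine with BAF-1 was lost without replicate 2 (0.138) or replicate 3 (0.1276). The lowest member was thus ceh-5 in both hypodermis groups, ceh-7 in intestine with BAF-1(G12T) and ceh-38 in intestine with BAF-1.

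One arm member stood apart from its compartment. ceh-88 (chrIV:17329188-17332435) had -1.40, -1.83 and -1.49 in hypodermis with BAF-1(G12T), -2.32, -1.34 and -1.66 in hypodermis with BAF-1, -3.0, -2.51 and -3.73 in intestine with BAF-1(G12T), and -1.38, -1.71 and -4.72 in intestine with BAF-1. It was the lowest arm member in all 4 groups, and it was also below its surroundings in all 12 columns. The calls below 0 were lost without replicate 2 of hypodermis BAF-1(G12T) (limma, adjusted p = 0.0965), without replicate 2 (0.0593) or replicate 3 (0.0826) of hypodermis BAF-1, and without replicate 2 (0.0966) or replicate 3 (0.196) of intestine BAF-1.

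Of ceh-16, ceh-43, ceh-20, ceh-60, ceh-6 and ceh-18, which were named for their known roles, only ceh-16 had no call. ceh-16, the engrailed gene of seam cells, was not called in any group, with means of -0.52 in hypodermis with BAF-1(G12T), -0.11 in hypodermis with BAF-1, 0.92 in intestine with BAF-1(G12T) and -0.26 in intestine with BAF-1. ceh-43, the Distal-less gene of the anterior hypodermis, had -1.08, -0.80 and -1.06 in hypodermis with BAF-1(G12T) and -0.27, -0.75 and -0.90 in hypodermis with BAF-1, without a call. In intestine it had -2.64, -2.68 and -2.17 with BAF-1(G12T) and -1.36, -2.70 and -2.34 with BAF-1, and both means passed, -2.5 (limma, adjusted p = 0.0104) and -2.13 (0.0167). Without replicate 2 of intestine BAF-1 the adjusted p was 0.1924, and without replicate 3 it was 0.0936. ceh-18, the POU gene of the gonadal sheath that acts in oocyte maturation, had -1.57, -1.65 and -1.81 in hypodermis with BAF-1(G12T) (mean -1.68, adjusted p = 0.0096) and -1.19, -2.17 and -1.43 in hypodermis with BAF-1 (-1.60, 0.033). The BAF-1 call ended without replicate 2 (0.2307) or replicate 3 (0.1064). In intestine its means were 0.35 with BAF-1(G12T) and -0.26 with BAF-1, without a call.

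Grouped by class, the 17 ANTP and NK class members, 11 of them in centres, had 3 bound and 3 below 0 in each hypodermis group and 0 bound and 4 below 0 in each intestine group. Their medians were 0.04, -0.03, -0.61 and -0.75, near those of protein-coding genes as a whole, -0.04, 0.06, -0.42 and -0.63. As background for all classes, 24.3%, 21.9%, 19.7% and 18.6% of protein-coding genes were bound in these groups. Below 0 were 26.2%, 22.5%, 22.2% and 29.7%. No class was tested as a set. The 6 ONECUT members, several of them on X where ceh-39 is one of the genes that report X chromosome number, had 0 bound and 2 below 0, then 0 and 1, 1 and 1, and 0 and 1. Of the 5 tested paired-like members, 1 and 2 were bound in hypodermis with BAF-1(G12T) and BAF-1 and 0 in intestine. Of the sine oculis class genes, ceh-34, which sets the identity of pharyngeal neurons, was bound in hypodermis with BAF-1(G12T) and in both intestine groups. Of the 24 members of no class list here, 14 lie in arms. Of those tested, 14 of 24 were bound in hypodermis with BAF-1(G12T) and 9 of 22 in hypodermis with BAF-1. In intestine 6 of 23 were bound with BAF-1(G12T) and 5 of 24 with BAF-1. Arm genes made up 12, 8, 4 and 4 of these bound members.

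Next, BAF-1(G12T) was compared with BAF-1 within each tissue. None of 58 members differed in hypodermis and none of 59 in intestine, where 0 of 30279 and 0 of 32982 genes passed by limma (0.0% in both directions). At an unadjusted p under 0.05 there were 585 genes in hypodermis and 994 in intestine, and 0 members in either. These limma fits did not pair the replicates. With the replicate number as a block, 2 members were higher and 2 lower at that p in intestine, among 486 and 1572 genes. In hypodermis there were again 0 members. The median difference over members was 0.12 in hypodermis, against -0.03 over protein-coding genes, and 0.11 in intestine, against 0.15. The single differences ranged between -0.75 and 1.25 in hypodermis and between -2.17 and 1.68 in intestine. The smallest p in hypodermis belonged to ceh-20, which was 1.17 ± 0.72 higher with BAF-1(G12T) (SE, limma, adjusted p = 0.9998). In intestine it belonged to ceh-14 among higher members, with 1.66 ± 0.82, and to ceh-7 among lower ones, with -1.70 ± 0.84 (SE, limma, adjusted p = 1.0 for both). The replicates of both proteins overlapped for ceh-20 and for ceh-7. For ceh-14 in intestine they did not, with 1.73, 1.61 and 1.78 for BAF-1(G12T) and -0.93, -0.70 and 1.11 for BAF-1. A missed threshold does not show that the proteins bind these genes alike.

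The bound sets of the 2 proteins overlapped by 14 members in hypodermis, 66.7% of the 21 for BAF-1(G12T) and 93.3% of the 15 for BAF-1. In intestine they shared 5 members, which are 5 of the 10 for BAF-1(G12T) and 71.4% of the 7 for BAF-1. Between tissues, the 21 of hypodermis and the 10 of intestine for BAF-1(G12T) shared 6, and the 15 of hypodermis and the 7 of intestine for BAF-1 shared 4. These overlaps were not taken over all genes, so they are not read as a trait of the members. Whether the protein difference itself changed with the tissue was tested by the interaction, in which 0 of 29716 genes passed and 2 of 58 members had an unadjusted p under 0.05, namely ceh-7 (2.33 ± 0.96) and ceh-60 (3.15 ± 1.35), among 1091 genes. Positive values here mean a higher value of BAF-1(G12T) minus BAF-1 in hypodermis than in intestine.

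Hypodermis was then compared with intestine for each protein. These differences are relative to the median of the genes tested in both tissues, which shifts the difference of means by 0.03 for BAF-1(G12T) and by 0.36 for BAF-1. With BAF-1(G12T), 3 of 59 members differed, ceh-84 and ceh-60 higher and ceh-14 lower in hypodermis, where 2.29% of 32033 genes were called higher and 5.03% lower. With BAF-1, 1 of 58 differed, ceh-51, higher in hypodermis, where 2.62% of 30152 genes were called higher and 5.56% lower. These shares are near the background. The count for BAF-1(G12T) was 0 without replicate 1 of hypodermis, when 0 of 32033 genes passed. It was also 0 without replicate 2 of hypodermis, when 28 genes were higher and 239 lower. It was 1 without replicate 1 (508 genes higher, 893 lower) or replicate 3 (371 higher, 866 lower) of intestine. For BAF-1 it was 0 without replicate 2 of hypodermis (51 genes higher, 387 lower) or without replicate 2 of intestine (69 higher, 413 lower). It was also 0 without replicate 3 of intestine, when 0 of 30152 genes passed. Without replicate 3 of hypodermis it was 2, when 625 genes were higher and 1365 lower. With all genes in the fit the count for BAF-1(G12T) was also 0, when 21 of 46374 genes were higher and 329 lower.

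ceh-84, an arm gene (chrII:1999743-2000820), had 3.05, 3.02 and 1.58 in hypodermis and -0.15, -1.98 and -0.02 in intestine with BAF-1(G12T). The tissues did not overlap, and the difference was 3.24 ± 0.80 (SE, limma, adjusted p = 0.0304). With BAF-1 it had 1.81, 3.94 and -0.17 in hypodermis and 0.58, -1.09 and -0.21 in intestine, which overlap. The BAF-1(G12T) call was lost without replicate 1 (adjusted p = 0.1309) or replicate 2 (0.1307) of hypodermis and without replicate 2 of intestine (0.058).

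ceh-60 (chrX:6522596-6530146), the PBC gene active in the intestine, had 0.83, -0.28 and -0.13 in hypodermis and -4.32, -1.52 and -3.90 in intestine with BAF-1(G12T). The difference was 3.35 ± 0.85 (SE, limma, adjusted p = 0.034), without overlap. With BAF-1 it had -1.0, -1.27 and 0.27 in hypodermis and 0.74, -0.87 and -3.72 in intestine, where the 2 tissues overlapped and replicate 3 of intestine lay far below the others. Without replicate 1 the intestine mean for BAF-1 was -2.30 and passed (0.0006031). The gene was singled out after its values were seen, and its call was lost without any 1 replicate of hypodermis (0.1464, 0.0989 and 0.0798) and without replicate 1 (0.0921) or replicate 3 (0.0925) of intestine.

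ceh-14 (chrX:7527769-7532732), a LIM homeobox gene of thermosensory and other neurons, ran the other way. It had -1.17, -0.64 and -1.84 in hypodermis and 1.73, 1.61 and 1.78 in intestine with BAF-1(G12T), without overlap, a difference of -2.96 ± 0.70 (SE, limma, adjusted p = 0.0257). It was below 0 in both hypodermis groups (means -1.22 and -1.51, adjusted p = 0.0476 and 0.049) and bound in intestine with BAF-1(G12T) (1.71, 0.0414), and each of these 3 calls was lost without at least 1 replicate (adjusted p up to 0.2928). With BAF-1 it had -0.55, -1.80 and -2.17 in hypodermis and -0.93, -0.70 and 1.11 in intestine, which overlap. The value of -2.17 lies at the most frequent ratio of its column, as genes without reads would have. The call below 0 in hypodermis with BAF-1 includes this value. The call of ceh-14 for the tissue difference held without replicate 2 of intestine, and in the other 5 cases the adjusted p lay between 0.0502 and 0.1068.

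ceh-51 (chrV:18874133-18875982), an NK-class gene of the early mesoderm, had 3.78, 2.15 and 1.90 in hypodermis and 0.05, -0.43 and -1.91 in intestine with BAF-1, without overlap, a difference of 3.01 ± 0.81 (SE, limma, adjusted p = 0.0331). With BAF-1(G12T) it had 2.84, 1.57 and 1.29 in hypodermis and 0.24, -0.10 and -1.30 in intestine, also without overlap, and the difference of 2.25 ± 0.77 did not pass (0.0893). The BAF-1 call was lost without replicate 1 (0.0877) or replicate 2 (0.079) of hypodermis and without replicate 2 (0.0888) or replicate 3 (0.1524) of intestine. Both arm genes that differed, ceh-84 and ceh-51, were higher in hypodermis, and over all arm members the median tissue difference was 0.36 with BAF-1(G12T) and 1.2 with BAF-1, against 0.12 and 0.29 over protein-coding arm genes.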

How the data were processed

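Per the labels and the study's methods, reads with the DamID adapter that mapped to GATC sites of ce11 (WBcel235) were counted over genes extended by 500 bp and over 2 kb bins. The deposited log2 values were made by the authors for each replicate from relative reads of fusion and GFP::Dam, with a pseudocount of 1 and the mean subtracted. The deposited adjusted p-values are the authors' own, from DESeq2 (version not given in the sources used here), and served only to tell tested genes from those without a value. The tables hold ratios rather than read counts, so no count model was used here. The reads per library listed by the study were not used.

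Here each column was centred on the median of its tested genes and fitted with limma 3.58.1 (robust, R 4.3.3, Benjamini-Hochberg over all tested genes). Python 3.11.15 made the summaries. Arms and centres follow the study's borders, by gene midpoint, and X was kept whole. In contrasts the centre was the median of genes tested in both groups, which shifts differences of BAF-1(G12T) minus BAF-1 by -0.10 in hypodermis and 0.21 in intestine. WBcel235 IDs matched 99.8% of table genes. The counted starts lay -347 to 681 bp from the annotated start, and no annotation release was stated for the tables.

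The numbers of the replicates pair the columns between proteins within a tissue (correlation of deviations 0.453, 0.321 and 0.283 in hypodermis, 0.302, 0.242 and 0.425 in intestine), and the blocked fit is given with the alternatives. The members and gene lists were chosen with earlier results of these data known. Named members were the 3 highest bound and 2 lowest of each group, the smallest p in each direction of each contrast, those bound in all 4 groups, and ceh-16, ceh-43, ceh-20, ceh-60, ceh-6 and ceh-18. Others were chosen after their values were seen. Fits were tested on simulated data. Alternatives were the centring, the filter, protein-coding genes alone, a fit that is not robust, genes off the most frequent ratio, the replicate block and leaving out each replicate.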

Additional observations from a re-analysis of the deposited data

Results flagged for a closer look

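For each protein the tissue difference of every member was tested, and 4 passed. With BAF-1(G12T) the mean ratio of ceh-14 was -1.22 in hypodermis and 1.71 in intestine, with opposite signs in every replicate, a difference of -2.96 (limma, adjusted p = 0.0257). ceh-84 was at 2.55 in hypodermis and -0.72 in intestine, a difference of 3.24 (0.0304). ceh-60 was at 0.14 in hypodermis and -3.25 in intestine, a difference of 3.35 (0.034). With BAF-1, ceh-51 was at 2.61 in hypodermis and -0.76 in intestine, a difference of 3.01 (0.0331). ceh-81 with BAF-1 had 2.52, 3.12 and 0.35 in hypodermis and -1.06, -0.28 and -0.62 in intestine, so that the tissues did not overlap, yet its difference of 2.28 did not pass (0.1011). The replicate signs of ceh-84 and ceh-81 hold on each group's own centring, and with the centre of the contrast 1 intestine replicate of each lies slightly above 0. Whether these tissue differences themselves differ between the proteins was tested by the interaction, and none passed.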

How the results depend on the processing

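No member called in the reported fits changed sign under any alternative run. The tissue difference of BAF-1 was called in 0 members higher and 1 lower (ceh-23) without replicate 1 of hypodermis BAF-1, when ceh-51 lost its call. The bound members of hypodermis BAF-1(G12T) numbered 0 (10 at an unadjusted p under 0.05) when all genes entered the limma fit. In that fit 1.05% of protein-coding genes were bound. When each replicate was left out in turn they numbered 12 to 16 (20.0% to 26.7%, against 16.1% to 23.2% of protein-coding genes). The bound members of hypodermis BAF-1 numbered 8 to 12 without a replicate (13.8% to 20.7%, against 13.5% to 22.9%). Those of intestine BAF-1(G12T) numbered 17 among protein-coding genes alone (28.8%, against 25.8% of those genes) and 4 to 6 without a replicate (6.78% to 10.2%, against 11.4% to 19.4% of protein-coding genes). Those of intestine BAF-1 numbered 4 with the deposited centring (6.67%, against 15.3% of protein-coding genes) and 4 with all genes (6.45% against 11.1%). They numbered 11 with genes off the most frequent ratio (20.8% against 23.3%) and 15 among protein-coding genes alone (25%, against 30.0% of those genes). Without a replicate they numbered 0 to 8, and 0 of 36850 genes passed without replicate 2. The tissue difference of BAF-1(G12T) was called in 0 members with all genes (12 at an unadjusted p under 0.05) and in 0 to 3 without a replicate. That of BAF-1 was called in 3 with the deposited centring, 3 among protein-coding genes alone and 0 to 2 without a replicate. No gene passed without replicate 1 of hypodermis for BAF-1(G12T), or without replicate 3 of intestine for BAF-1. With the replicate block the tissue difference of BAF-1(G12T) was called in 0 members (12 at an unadjusted p under 0.05), but across tissues the samples share only a number (correlations of deviations -0.101, 0.077 and -0.003), and the block changed no call between the proteins, where 0 members passed under every alternative. The arm minus centre difference of hypodermis BAF-1 was 2.16 over all members, 2.72 as a median and 2.24 with 1 member per overlapping cluster, and its arm minus X median was 1.73. In intestine BAF-1 the X minus centre median was 0.50 and the arm minus X median 0.62. Named members stayed on their side of the threshold in 553 fits, lost their call in 106 and gained one in 9. The losses include settings in which no gene passed. The local differences moved by more than the replicate SD in 2 of 36 settings. In replicate 2 of intestine BAF-1 the most frequent ratio, at which 7598 genes lie, was 2.46 before centring, as genes without reads would have. The median of the tested genes of that column was -0.54 before centring, so such genes lie well above 0 once centred. In intestine BAF-1, 9 members lie at the most frequent ratio of some column, and in hypodermis BAF-1 8 members do. Depth limits the precision of all ratios, and the uneven reads per library listed by the study were not used here.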

Other observations

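Beside the ceh family, 31 homeobox genes with other names were in the tables, 9 of them in arms, 10 on X and 12 in centres. In hypodermis 6 were bound and 7 below 0 with BAF-1(G12T), beside 24.3% and 26.2% of protein-coding genes, and 3 were bound and 7 below 0 with BAF-1, beside 21.9% and 22.5%. In intestine 11 were bound and 1 was below 0 with BAF-1(G12T), beside 19.7% and 22.2%, and 7 were bound and 6 below 0 with BAF-1, beside 18.6% and 29.7%. Their medians were -0.03 and 0.52 in hypodermis and 1.03 and 0.52 in intestine, for BAF-1(G12T) and BAF-1 in turn, where those of the ceh members were 0.61 and 0.31, and 0.24 and -0.23. The highest of these genes in all 4 groups was cog-1, an Nkx6-type gene of gustatory neurons and vulva, with means of 2.83 and 3.16 in hypodermis and 3.83 and 3.22 in intestine. The lowest in both hypodermis groups was unc-62, the Meis-type partner of the PBC proteins, at -3.26 with BAF-1(G12T) and -3.02 with BAF-1. The list was compiled with earlier results known, and the difference between it and the ceh family was not tested.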
